A study of Rattus norvegicus with 9 samples.

Results

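Baseline gene expression was described in the lungs of 4 control rats, which is the whole control group of a study of 7 rats and 9 arrays. The control animals account for 5 of those arrays, because control 1 was hybridised to 2, a first array and a technical replicate. The labels do not say at which step the technical replicate was split off. The values of both arrays were averaged into 1 value for control 1, so n = 4 refers to rats, and no control sample was left out. The rats were of the Wistar strain, an outbred laboratory rat. Controls ate a standard chow without restriction and drank plain water for 24 weeks, were fasted for 7 hours and were killed by decapitation. The labels give no sex for the control animals and do not say which part of the lung was taken. The study's other rats, which drank a 30% sucrose solution, are not compared here, and no test between groups was made. As each lung was measured as bulk RNA, fewer cells of a type and less RNA per cell cannot be told apart anywhere below.

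The gas-exchange surface of the lung is built from thin type 1 alveolar cells, which cover most of the area, and cuboidal type 2 cells, which secrete surfactant and can renew the type 1 layer. A dense capillary bed lies beneath them, the conducting airways are lined by club, ciliated and basal cells, and macrophages patrol the air spaces. Sftpc marks type 2 cells, Ager type 1 cells, Scgb1a1 club cells and Pecam1 endothelium, the lining of blood vessels. In rodents, a sleeve of heart muscle also runs along the pulmonary veins into the lung.

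The arrays report 28826 transcript clusters as log2 levels, of which 15209 carry exactly 1 gene symbol and stand for 14497 genes. Gene means over the 4 animals ran from 3.18 to 13.89 with a median of 8.09, and the highest value on any control array was 14.16. A rank given below is the rank of array signal among the 14497 genes and not of transcript number, since probes bind their targets with unequal strength. The files hold no detection call, so levels were read against 1102 olfactory receptor genes, a family of odour sensors taken here as a near-background reference. The 95th percentile of these receptors, named the olfactory level below, was 7.43, 8.07, 8.01 and 7.10 in controls 1 to 4. Of all genes, 6996 (48.3%) lay above the olfactory level in every animal and 4236 lay above it in none. The receptors themselves were brighter in controls 2 and 3, with medians of 6.83 and 6.76, than in controls 1 and 4, with medians of 6.26 and 5.90. The arrays of controls 2 and 3 also had the narrower spread over all probes, with SDs of 1.77 and 1.76 against 1.85 and 1.88. Over the 7501 genes not above the olfactory level in every animal, the median deviation from a gene's own mean was -0.04, 0.02, 0.06 and -0.04 in controls 1 to 4. Over the 6996 genes above it in every animal it was 0.05, -0.05, -0.07 and 0.07, the baseline against which the deviations of lists below are to be read. One animal, control 1, stood apart from the others through striated muscle genes, which are described with their values further on.

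All 4 lung markers were bright in every animal, and the spread between animals was widest for Pecam1, the dimmest of the 4. Sftpc, the surfactant protein that defines type 2 cells, had the highest mean of all genes at 13.89 ± 0.01 (SD, n = 4) and ranked first in each of the 4 animals. Scgb1a1, the secretoglobin of club cells, followed at 13.76 ± 0.04, with 13.73, 13.77, 13.81 and 13.73 in controls 1 to 4. Ager, a receptor concentrated on type 1 cells, read 13.20 ± 0.05 at rank 23, and its values of 13.16, 13.19, 13.19 and 13.28 spanned 0.115 log2 units. Pecam1, an adhesion molecule of endothelial junctions, read 11.36 ± 0.15 at rank 439, with 11.28, 11.45, 11.19 and 11.53. The markers of all 4 lung cell types were thus above the olfactory level in every animal. A small spread was not particular to Sftpc, Scgb1a1 and Ager. They are among the 30 genes with the highest means, whose median SD was 0.04, against 0.08 over the highest 500.

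Among the 30 genes with the highest means, the surfactant proteins Sftpa1 (13.70) and Sftpb (13.58) stood at ranks 4 and 9. Lyz2, the lysozyme of macrophages and secretory cells, stood at rank 6 with 13.67, and B2m, the light chain of class I antigen-presenting molecules, at rank 8 with 13.66. The caveolar coat protein Cav1 (13.31), abundant in type 1 cells and endothelium, and Cd74 (13.15), the class II invariant chain, were also among them. Igfbp7 (13.07) and Vim (13.04), genes of vessel walls and connective tissue, were the remaining lung-structure genes named here. Most of the remainder were genes that nearly every cell uses: Actb (13.71), Eef1a1 (13.70), Txn1 (13.57), Fth1 (13.43), Gapdh (13.43), Hspa8 (13.38) and Ftl1 (13.19), together with 8 ribosomal protein genes led by Rps29 (13.67). The 30th, Rpl41, varied most of these, with 12.83, 12.97, 13.13 and 13.21, an SD of 0.17, the highest among the 30. The top was stable, as 26 genes were in the top 30 of every animal and 82 were in the top 100 of every animal. Neighbouring ranks are nonetheless not distinct: ranks 4 and 5, Sftpa1 and Eef1a1, have means that differ by less than their SDs of 0.07 and 0.03.

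Type 2 genes were high as a group, and on the deposited scale they varied little between animals. All 13 measured genes of the list lay above the olfactory level in every animal, and the median level was 11.28. Slc34a2 (12.95 ± 0.05), the phosphate transporter of type 2 cells, and Lamp3 (12.78 ± 0.07), a lamellar body membrane protein, followed the surfactant proteins. Sftpd (11.95 ± 0.16), a collectin of innate defence, read 12.11, 12.05, 11.74 and 11.90. Lower in the list stood Abca3 (10.81), which pumps phospholipid into lamellar bodies, Nkx2-1 (9.99), the transcription factor that defines lung epithelium, and Etv5 (9.10), a factor that maintains type 2 identity. Chi3l1, a chitinase-like secreted protein, was the widest, with 11.27 in control 2 against 10.70, 10.75 and 10.63. The median SD of the list was 0.07, against 0.13 over all genes and 0.08 over the 500 genes with the highest means. The order of the list and all genes rests on the scaling of the deposited values. With each animal scaled to the same median and SD, the list stood at 0.145 and all genes at 0.116.

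Type 1 genes had the highest median level of any cell type list, 11.93, and 14 of 15 lay above the olfactory level in every animal. After Cav1 and Ager came Hopx (13.03 ± 0.08), a homeodomain cofactor, Clic5 (12.98 ± 0.02), Pdpn (12.95 ± 0.07) and the tight-junction protein Cldn18 (12.90 ± 0.09). The water channel Aqp5 read 11.93 ± 0.06. Vegfa, the endothelial growth factor that type 1 cells supply to capillaries, read 11.73, 11.89, 11.98 and 12.06. The exception was Igfbp2, at 7.41, which lay above the olfactory level in 1 animal.

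Lipid handling and ion transport, which the alveolar epithelium needs for surfactant and for clearing fluid, were read from separate lists. Of 18 surfactant lipid genes, 16 lay above the olfactory level in every animal. Scd2 (11.71 ± 0.26), a fatty acid desaturase, the cholesterol exporter Abcg1 (11.40 ± 0.15) and Lpcat1 (11.28 ± 0.18), which makes the main surfactant phospholipid, were prominent, whereas the elongase Elovl6 (7.00) was above it in no animal. Chpt1, a choline phosphotransferase, was the widest, with 10.21, 9.70, 9.38 and 9.75. Among 18 ion and water transport genes, 13 lay above the olfactory level in every animal. The sodium channel subunits Scnn1a (11.11 ± 0.15) and Scnn1g (10.54 ± 0.20) and the pump subunit Atp1b1 (11.61 ± 0.13) were bright, and Scnn1b read 9.58 ± 0.26. Cftr, the chloride channel, read 8.33, 7.86, 8.39 and 8.25 and missed the olfactory level in control 2. Aqp4, a water channel, was higher in controls 1 and 4 (9.61 and 9.90) than in controls 2 and 3 (9.10 and 9.11).

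Claudins, the sealing proteins of tight junctions, showed a wide range of levels within 1 gene family. Of 19 measured claudins, 9 lay above the olfactory level in every animal. Cldn18 was followed by Cldn5 (10.04 ± 0.18), the claudin of endothelium, and by the epithelial claudins Cldn3 (9.75 ± 0.09) and Cldn7 (9.48 ± 0.11). Cldn4 (8.55 ± 0.14) lay nearer the olfactory level, while Cldn9, Cldn14, Cldn16 and Cldn19 lay below it in every animal. Cldn8 was uneven, with 7.81, 7.59, 8.10 and 7.14.

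Airway genes divided by cell type. Of 18 club and secretory genes, 15 lay above the olfactory level in every animal, with Cyp2b1 (12.67 ± 0.20) and Cyp4b1 (12.22 ± 0.16), the drug-oxidising cytochromes of club cells, and Pigr (12.09 ± 0.06), which carries antibody into the airway, at the top after Scgb1a1 and Lyz2. Bpifa1, Reg3g and Ltf, antimicrobial secretions typical of the nose, large airways or glands, lay above it in none. Ciliated-cell genes were dimmer, with a median of 8.02 and 6 of 18 above the olfactory level in every animal. Of these, Tubb4b (10.14 ± 0.05) and Tppp3 (12.33 ± 0.13) are a tubulin and a tubulin partner that other cells also use. Hydin (9.06 ± 0.21) and Foxj1 (8.57 ± 0.11), a cilium protein and the master regulator of ciliogenesis, were also among the 6. Of 7 basal-cell genes none lay above the olfactory level in every animal, with the basal-cell regulator Tp63 at 6.44 and Krt14 at 6.32. The same held for 8 neuroendocrine genes, with Calca at 6.65 and Chga at 6.78.

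General and capillary endothelium was read from 24 genes, with 23 of them above the olfactory level in every animal and a median of 10.84. Calcrl (12.34 ± 0.09), the receptor for adrenomedullin, Bmpr2 (12.16 ± 0.07), the BMP receptor mutated in familial pulmonary hypertension, and Ace (11.95 ± 0.13), the angiotensin-converting enzyme, led the list. Robo4 (7.29) was the exception. Gpihbp1, which anchors lipoprotein lipase on capillaries, was the widest, with 10.28, 10.83, 11.27 and 11.15. Aerocyte genes included Car4 (10.44 ± 0.16) and Apln (8.90 ± 0.19), the latter at 9.17 in control 4 and 8.79 to 8.81 in the other animals. Among arterial and venous genes, Efnb2 (9.84 ± 0.10), Gja5 (9.01 ± 0.11) and Vcam1 (9.03 ± 0.25) were above the olfactory level in every animal, while the inducible adhesion molecules Sele (6.78) and Selp (6.88) were above it in none. Prox1 (6.21), the lymphatic fate regulator, was likewise above it in none, whereas Lyve1 (10.69 ± 0.28), a hyaluronan receptor of lymphatics and some macrophages, read 11.00, 10.78, 10.64 and 10.34.

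Genes of vascular tone carried 1 variable member among 31. Edn1, the precursor of the vasoconstrictor endothelin-1, read 10.50, 10.27, 9.93 and 11.21, so that control 4 was higher than the next animal by 0.71. Its processing enzyme Ece1 read 10.10 ± 0.06. Agtr1a, the main angiotensin receptor, read 8.54 ± 0.18, and Nos3, the endothelial nitric oxide synthase, 7.67 ± 0.10, close to the olfactory level and above it in 2 animals. Pde5a, which breaks down cyclic GMP, read 10.06 ± 0.09. Of receptors for bronchial and neural signals, Vipr1 (10.49 ± 0.17) was the brightest after Calcrl. The muscarinic receptor Chrm3 read 7.95 ± 0.13. The muscarinic receptor of heart, Chrm2, read 7.77 in control 1 and 6.86, 6.86 and 6.54 in the other animals.

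Fibroblast and matrix genes were mostly above the olfactory level, and smooth muscle and pericyte genes less often. Of 22 fibroblast genes, 17 were above the olfactory level in every animal, from Ogn (12.33 ± 0.13), a small leucine-rich proteoglycan, through Dcn (11.24 ± 0.18) and Fn1 (11.18 ± 0.15) to Tcf21 (9.34 ± 0.02), the transcription factor of lung lipofibroblasts. Lum was above it in no animal, at 6.86, 6.65, 6.17 and 6.26. The matrix genes included Sparc (12.75 ± 0.10), Eln (9.02 ± 0.15), which encodes elastin, and Lox (9.56 ± 0.33), its cross-linking enzyme, which read 10.04 in control 4 against 9.35, 9.55 and 9.32. Fibrillar collagens were modest, with Col3a1 at 9.02 ± 0.09, Col1a2 at 8.88 ± 0.06 and Col1a1 at 8.80 ± 0.10. Of 12 smooth muscle genes, 6 were above the olfactory level in every animal, with a list median of 8.31. The brightest were Acta2 at 10.58 ± 0.08 and Mylk at 9.76 ± 0.05. Of 12 pericyte genes, 4 were above it in every animal, with a list median of 7.83. Mesothelium, the outer covering of the lung, was represented by Krt19 (11.85 ± 0.14), which airway epithelium also expresses, and by Gpm6a, which read 11.24 in control 1 and 10.77 to 10.79 in the other animals.

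Some genes of several immune cell types were above the olfactory level in every animal. Macrophage genes included Mrc1 (11.34 ± 0.13), Cd68 (10.72 ± 0.14) and Pparg (9.90 ± 0.28), the last a regulator of alveolar macrophage identity, whereas Marco (7.30), above the olfactory level in 1 animal, and Fabp4 (6.51), above it in none, were low. Csf1r, the growth factor receptor of monocytes and macrophages, read 11.21 ± 0.14. Of 15 neutrophil genes, 6 were above the olfactory level in every animal and 4 in none, with a median level of 7.50, and the bright ones included Retnlg (12.03 ± 0.38) and S100a9 (10.87 ± 0.07). Of 19 T cell genes, 8 were above it in every animal, with a list median just under the 8.09 of all genes, among them Cd4 (9.78 ± 0.08), which rat macrophages also express, Cd3e (8.77 ± 0.17) and Cd8a (8.26 ± 0.06). Of 12 B cell and plasma cell genes, 5 were above it in every animal and 3 in none, with a median of 7.90. Among them Jchain (11.86 ± 0.30), the joining chain of secreted antibodies, read 11.44, 12.13, 11.84 and 12.02. Of 10 dendritic cell genes, 4 were above it in every animal, with a median of 7.77. The shares were 40.0% for neutrophil and dendritic, 42.1% for T cell and 41.7% for B cell and plasma cell genes. They were 61.1% for alveolar macrophage genes and 48.3% for all genes. Class II genes followed Cd74, with RT1-Da at 11.76 ± 0.16 and RT1-Ba at 10.83 ± 0.15.

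Detoxification, energy supply and cell division were read from further lists. Of 32 xenobiotic and antioxidant genes, 28 were above the olfactory level in every animal, headed by Txn1, Prdx1 (12.80 ± 0.09) and Prdx6 (12.66 ± 0.03), peroxide-removing enzymes, whereas Cyp1a1 (5.67), which is induced by aromatic pollutants, was above it in none. Respiratory chain genes were above it in 22 of 23 cases. Among glucose genes, the insulin receptor Insr read 9.77 ± 0.06, the widespread transporter Slc2a1 9.43 ± 0.16 and the insulin-responsive transporter Slc2a4 6.87 ± 0.33. Division genes were low, with 3 of 21 above the olfactory level in every animal. Of these, Pcna (9.67 ± 0.18) is used in DNA repair as well, and the mitotic kinase Cdk1 was at 6.40.

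Genes of neighbouring tissues were mostly at or below the olfactory level. Of 15 hepatocyte genes, Serpina1 (9.33) alone was above the olfactory level in every animal, and albumin, Alb, read 5.89, 6.32, 6.28 and 5.76. Of 10 thyroid and nerve genes, 3 were above it in every animal, led by Pmp22 (12.20), while thyroglobulin, Tg, read 6.81. Of 11 adipose genes, 2 were above it in every animal and 4 in 1 to 3 animals. The brightest were Pnpla2 (10.77) and Lipe (9.51), while Adipoq, the fat hormone gene, read 6.84. Of 15 skeletal muscle and oesophagus genes, 2 were above it in every animal, and the brightest by mean were Ckm (8.83) and Acta1 (8.43). Among fast skeletal muscle genes, Myh4 read 6.94, 7.16, 6.96 and 6.64, and Tnnt3 6.45 ± 0.03.

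**Figure D1:**
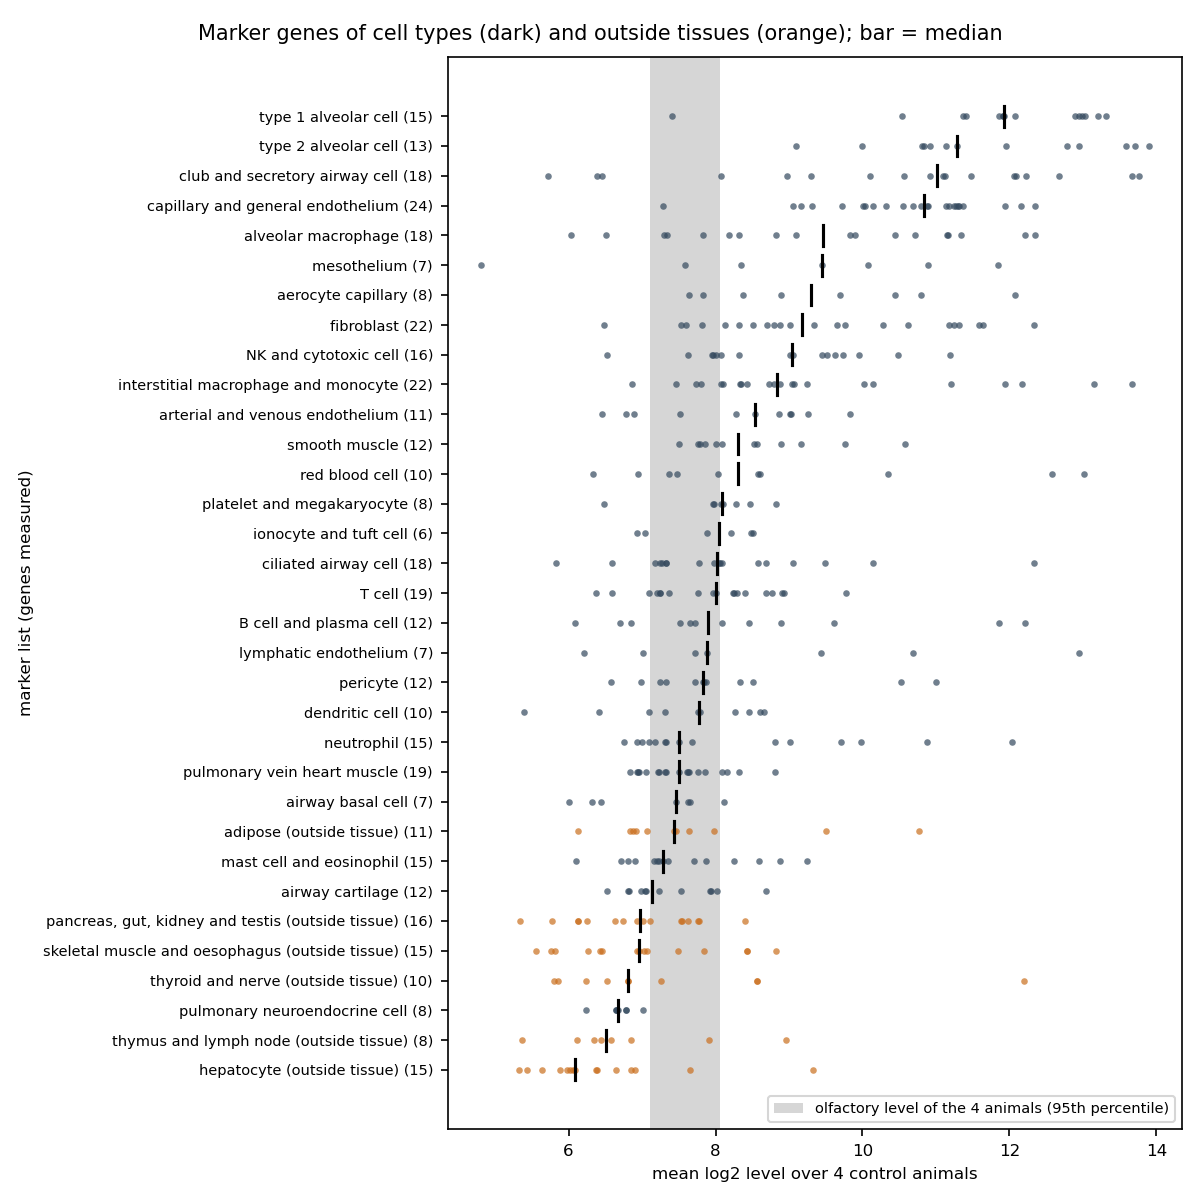
Mean log2 level of each measured marker gene over the 4 control animals, 1 row per list ordered by its median (black bar), with the range of the 4 animals' olfactory levels as a grey band from 7.10 to 8.07. Type 1, type 2, club and capillary endothelial lists lie mostly to the right of the band, while hepatocyte, thymus and neuroendocrine genes lie mostly at its left. The lymphatic endothelium list has its median inside the band, at 7.88.

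Spread between animals was small for most genes. The median SD over the 14497 genes was 0.13, and the median gene differed 1.21-fold between its highest and its lowest animal. The technical replicate of control 1 sets the scale: its 2 arrays differed by a median of 0.06, and by more than 1 log2 unit for 2 genes. Between animals the median difference ran from 0.09, for controls 1 and 4, to 0.18, for controls 3 and 4. Over genes above the olfactory level in both members of a pair, 12 of 7025 differed by more than 1 for controls 2 and 3, 42 of 7186 for controls 2 and 4 and 46 of 9273 for controls 1 and 4, against 0 of 9122 between the arrays of control 1. The median SD was 0.21 among the dimmest of 10 equal groups of genes ordered by level and 0.10 among the brightest.

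Genes with a wide spread were often receptors of the nose. An SD over 0.5 was found for 636 genes, 462 of which were olfactory or vomeronasal receptors. These receptors, whose medians by animal are given above, are not described further. Requiring a level above the olfactory level in 1 or more animals left 196 wide genes, 54 of them such receptors. Control 1 was a lone high animal in 30 of the 196, meaning that its gap to the next animal, as a share of the whole range, was above Dixon's 95% critical value for 4 samples, and 16 of those 30 were on the heart or skeletal muscle lists. For the other 3 animals together, the same rule found a lone high animal in 1 gene, Chodl, and a lone low animal in 5, Dnajc12 (control 2) and Rps25, Bmp3, Rgs1 and Ctdsp1 (control 3). A gene could enter the 196 through 1 high animal alone, and more easily where the olfactory level was lower, as in controls 1 and 4. These counts therefore only describe the selected genes. Over all 14497 genes, 1109 (7.65%) had a lone animal, high or low, by this rule. Rps25, a ribosomal protein gene, read 12.46, 12.50, 9.73 and 12.52. The housekeeping list, with a median level of 11.59, lay at the other end, with a median SD of 0.065 and a highest SD of 0.17. The 500 genes with the highest means had a median SD of 0.08, so a small spread was not particular to this list.

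**Figure D2:**
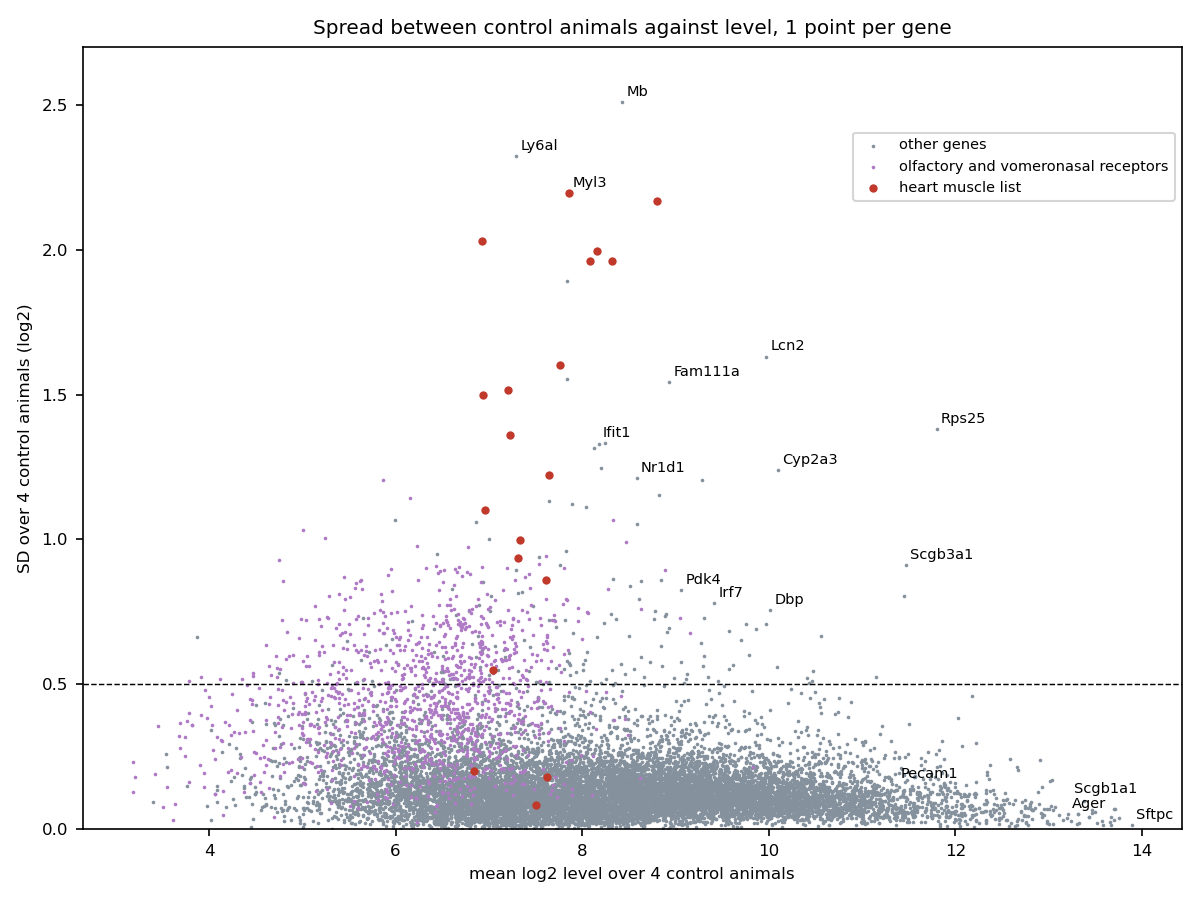
SD over the 4 control animals against mean log2 level, 1 point per gene, with heart muscle genes in red, olfactory and vomeronasal receptors in purple and the line at an SD of 0.5. Mb has the highest SD at 2.51, and the markers Sftpc, Scgb1a1, Ager and Pecam1 have SDs of 0.01 to 0.15.

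Heart muscle genes were the list with the widest spread, and control 1 was the animal that set them apart. Myoglobin, Mb, the oxygen store of red and heart muscle, read 12.19 in control 1 and 7.18, 7.18 and 7.15 in controls 2 to 4, where controls 2 and 3 lay below their olfactory level. Within control 1 it ranked 156, and in controls 2 to 4 its ranks were 10303, 10346 and 10026. Actc1, cardiac actin, read 12.06 against 7.60, 7.75 and 7.80. The sarcomere genes Myl3, Tnnt2, Myh6 and Myh7 read 11.15, 11.26, 11.13 and 10.68 in control 1, and no other animal exceeded 7.39 for any of them. Tnni3, the troponin found only in heart, read 9.97 against 5.85, 5.90 and 5.99, and Tnnc1 read 10.17 against 6.90, 6.92 and 7.06. Pln, the regulator of the calcium pump, read 11.02 against 6.87, 7.16 and 7.30, and Casq2, the cardiac calcium store, 9.17 against 6.31, 6.39 and 5.89. Both arrays of control 1 gave these values: Mb read 12.14 and 12.24 and Tnni3 9.93 and 10.01.

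The heart pattern covered most of its list but not all. Of 19 measured heart genes, 16 had an SD over 0.5, and all 16 were highest in control 1, while in controls 2 and 3 none of the 19 was above the olfactory level. In control 4, whose olfactory level was the lowest, 6 were, among them Actc1 and Pln. Myl2, the ventricular light chain, was among the 16 with 9.48 against 6.52, 6.31 and 6.52, as were Actn2 (9.26 against 6.48 to 6.62) and Ttn (9.47 against 6.88 to 7.11). The other 3 are known from atrial muscle: Myl7, the atrial light chain, read 7.71, 7.51, 7.84 and 7.45, Sln, sarcolipin, 7.46, 7.47, 7.63 and 7.45, and Nppa, atrial natriuretic peptide, 6.76, 7.06, 6.94 and 6.60. Nppb read 7.86 in control 1 against 6.68 to 6.85. Of fast skeletal genes, Myh4, Tnnt3 and Atp2a1 did not stand apart in control 1, and Acta1 read 8.88 there against 8.19 to 8.33. Without control 1 the median SD of the heart list was 0.12, against 1.36 with it.

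Metabolic genes that heart muscle uses heavily were also high in control 1. Fabp3, the heart fatty acid carrier, read 10.18 in control 1 and 7.06 to 7.07 in the others. Ckm, muscle creatine kinase, read 10.55 against 8.18, 8.38 and 8.19. Cox6a2 and Cox8b, the muscle forms of cytochrome oxidase subunits, read 9.57 and 9.99 in control 1. Cox8b was also uneven among the other animals, with 6.97, 7.50 and 8.05. Cpt1b, the muscle carnitine acyltransferase, read 8.62 against 6.77 to 6.95, while the liver form Cpt1a read 10.43, 10.46, 10.38 and 10.02. Ldhb, the lactate dehydrogenase subunit of heart, read 10.35 against 8.67 to 9.20, and Des, the intermediate filament of muscle, 9.90 against 8.43, 8.27 and 8.96. The respiratory chain list was higher by a median of 0.24 in control 1 than its 4-animal mean, and its deviations in controls 2 to 4 were -0.13, -0.11 and 0.03. Whether these genes differ through the muscle RNA was not tested.

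**Figure D3:**
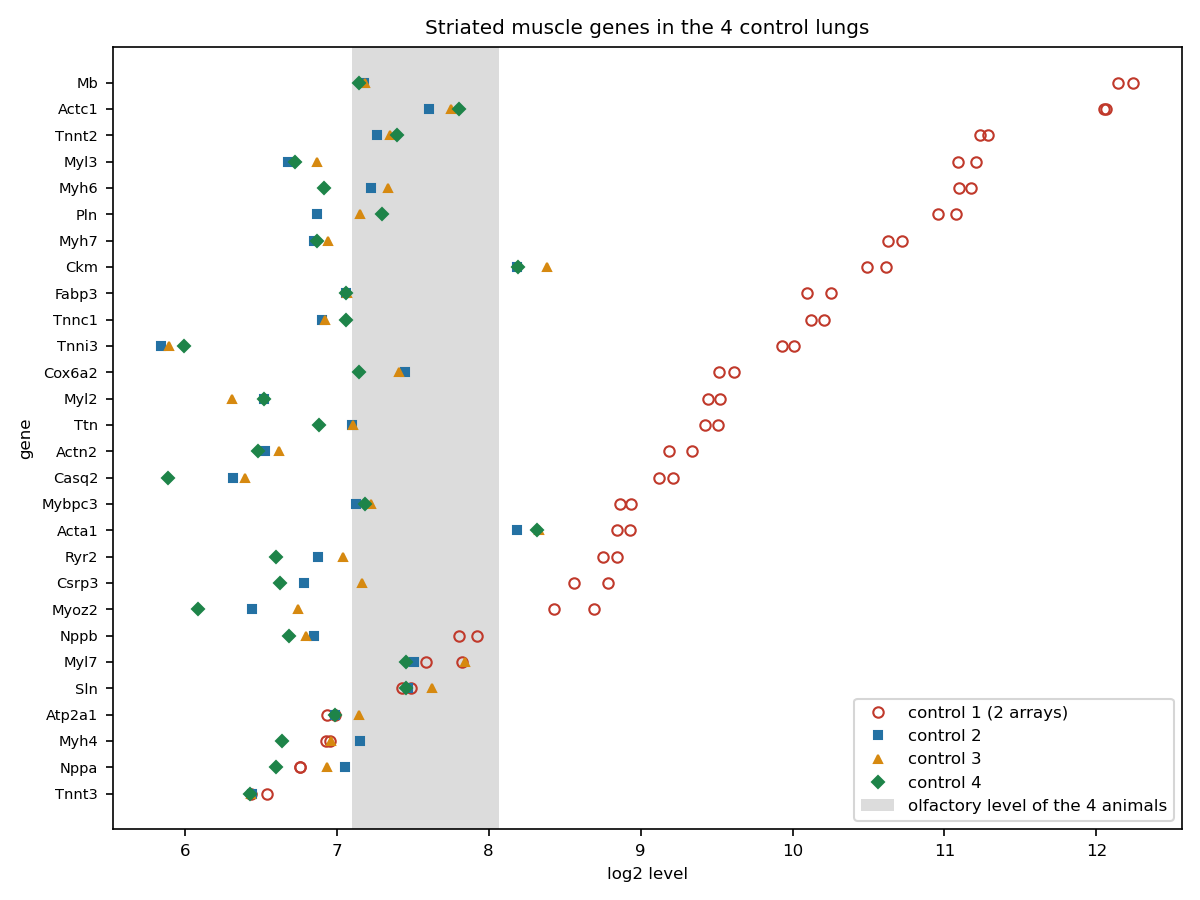
Log2 levels of heart and skeletal muscle genes, 1 row per gene, with the 2 arrays of control 1 as open circles, controls 2 to 4 as filled marks and the range of the olfactory levels in grey. The 2 arrays of control 1 lie together, with Mb at a mean of 12.19, while controls 2 to 4 stay at or below the grey band except for Ckm and Acta1 (next animal 8.38 and 8.33), and the atrial genes Myl7, Sln and Nppa and the fast skeletal genes do not separate.

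Several secretory airway genes were lowest in control 4. Of the 18 genes of the club and secretory list, 10 were lowest in that animal, whereas the bright members Scgb1a1, Lyz2 and Pigr had SDs of only 0.04, 0.01 and 0.06. Control 4 was the lowest animal for 3492 of all 14497 genes and for 514 of the 6996 above the olfactory level in every animal. Among the other 7501 genes it was lowest for 2978, and 3 of the 18 lie among these. Lcn2, lipocalin 2, an iron-binding defence protein of airway epithelium and neutrophils, read 11.40, 10.56, 10.30 and 7.63, which is 6.37-fold between control 4 and the next animal. Scgb3a1, a secretoglobin of larger airways, read 11.70, 12.47, 11.44 and 10.27. The cytochromes Cyp2a3, an enzyme of airway and nasal mucosa, and Cyp2f4, of club cells, read 10.02, 11.35, 10.59 and 8.43, and 10.78, 11.29, 10.47 and 9.70. In each of these 4 genes control 4 was the lowest animal, and in the last 3 control 2 was the highest. The sulfotransferases Sult1c2 (8.68, 9.15, 8.61 and 6.36) and Sult2a2 (7.96, 9.04, 8.66 and 6.52) were likewise highest in control 2 and lowest in control 4. Lcn2, Cyp2a3, Sult1c2 and Sult2a2 are not on the club and secretory list and were among the 30 genes named for the largest SDs. Their values describe selected genes and add nothing to the count for the list.

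Other airway genes showed the order in weaker form or not at all. Scgb3a2 read 11.13, 11.07, 11.03 and 10.46, Agr2, a mucin-folding protein, 9.14, 9.24, 9.02 and 8.51, and Fmo2, a drug-oxidising enzyme, 12.16, 12.27, 12.20 and 11.64, each lowest in control 4. Cyp2b1 ran otherwise, with 12.56, 12.45, 12.90 and 12.76, and Pigr read 12.10, 12.16, 12.03 and 12.08. Aqp3, a basal and secretory cell water channel, read 8.47, 8.50, 7.92 and 7.58. Foxj1 was 8.61, 8.69, 8.57 and 8.43, and the ciliated list deviated by 0.11, 0.03, -0.04 and -0.11 in controls 1 to 4. Over the 18 club and secretory genes, the median SD was 0.18 with all animals and 0.11 without control 4. No label records how much airway each lung sample held, and its part in these values was not tested. Clca1, a goblet-cell secreted protein, followed another animal, with 9.03, 8.52, 6.29 and 9.14.

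Interferon-responsive genes, which are induced together by signals of viral infection through the transcription factor complex ISGF3, were higher in controls 1 and 2 than in controls 3 and 4. The list of 22 genes deviated by medians of 0.28, 0.24, -0.27 and -0.21 in controls 1 to 4, and its median SD was 0.37, against 0.13 over all genes. Irf7, the regulator that amplifies the response, read 10.20, 9.95, 8.96 and 8.57. The antiviral GTPases Mx1 (9.83, 9.80, 8.90 and 8.68) and Mx2 (9.89, 9.17, 8.41 and 7.93) had the same order. Usp18, which removes ISG15 and restrains the pathway, read 9.29, 9.49, 8.17 and 8.11. The oligoadenylate synthetases, sensors of double-stranded RNA, were alike, with Oas1a at 9.45, 9.66, 8.67 and 8.48 and Oas1b at 8.50, 8.57, 7.53 and 7.52. In all 6 of these genes the lower value of controls 1 and 2 lay above the higher value of controls 3 and 4.

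Some other interferon genes split the animals in the same way but with smaller gaps, and some did not. Ifi47 (11.08, 11.08, 10.80 and 10.99), Irf9 (9.58, 9.64, 9.40 and 9.48), a subunit of ISGF3, and Gbp2 (9.40, 9.45, 9.24 and 9.32) varied little. Ifit2 read 9.09, 8.92, 8.85 and 8.73. Rsad2, viperin, was lowest in control 3, with 8.52, 8.39, 7.47 and 8.21. Ifi47, Irf9, Gbp2, Ifit2 and Rsad2 all kept the split. Ifit1, a sensor of viral RNA, ran against the rest in control 2, with 9.38, 6.27, 8.57 and 8.49, while its relative Ifit3 read 9.42, 9.73, 8.71 and 8.64. Cxcl10, an inducible chemokine, stayed near the olfactory level with 7.68, 7.91, 7.89 and 7.66, and did not show the split.

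Upstream sequences were examined because these genes share a regulator. The letters GAAANNGAAA (TTTCNNTTTC on the other strand), a form of the interferon-stimulated response element, were searched on both strands in the 250 bases before each RefSeq gene start, and overlapping matches were counted separately. Of the 22 measured interferon genes, 15 had an upstream sequence in the table and 11 of those held a match, against 3.24% of 11963 measured genes and 3.61% of all 27457 gene symbols with a sequence. The sequences come from RefSeq on assembly GRCr8, which is of another rat strain, BN, and a match is a string of letters rather than a shown binding site. The last 100 bases before the start are printed below for 4 genes with an SD over 0.5. Those of 2 genes that varied less, Ifi44 and Gbp2, follow. Matches are in capitals, and the bases run 5′ to 3′ on the strand of the gene.
Irf7, chr1:205800024-205800123, minus strand: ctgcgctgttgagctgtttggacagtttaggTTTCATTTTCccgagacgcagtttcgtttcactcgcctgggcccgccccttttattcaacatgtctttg
Ifit3, chr1:241527226-241527325, plus strand: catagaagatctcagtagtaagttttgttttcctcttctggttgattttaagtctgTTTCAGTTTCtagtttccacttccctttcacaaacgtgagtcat
Oas1a, chr12:41330366-41330465, plus strand: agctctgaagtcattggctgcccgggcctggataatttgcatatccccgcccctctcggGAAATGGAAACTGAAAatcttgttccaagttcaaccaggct
Oas1b, chr12:41395853-41395952, minus strand: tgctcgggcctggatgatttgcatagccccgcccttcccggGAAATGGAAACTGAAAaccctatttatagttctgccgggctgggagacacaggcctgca
Ifi44, chr2:243303841-243303940, minus strand: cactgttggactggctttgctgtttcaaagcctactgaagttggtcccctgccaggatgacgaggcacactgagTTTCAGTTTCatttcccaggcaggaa
Gbp2, chr2:234005627-234005726, plus strand: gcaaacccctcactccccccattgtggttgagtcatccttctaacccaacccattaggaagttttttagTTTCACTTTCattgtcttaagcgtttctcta

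Matches did not sort the wide interferon genes from the narrow. Oas1a and Oas1b each held 2 overlapping matches, the first beginning 41 and 59 bases before the start, and Irf7 held 1 beginning 69 bases before it. Ifi44 (10.02, 10.20, 9.78 and 9.82) and Gbp2 held a match 26 and 31 bases before their starts and had SDs of 0.19 and 0.09. Mx1 and Oasl, with SDs of 0.60 and 0.50, held none in the 250 bases, and neither did Ifi47 and Irf9. Mx2, Usp18, Ifit1, Ifit2, Isg15, Rtp4 and Rig1 were not in the sequence table.

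Clock genes separated control 3 from the others. The circadian clock is a feedback loop in which BMAL1 and its partners CLOCK or NPAS2 drive output genes such as Dbp, and also the Per and Nr1d1 genes, whose products act against them, so that the Bmal1 and Nr1d1 arms peak at opposite times of day. Nr1d1, the repressor REV-ERB alpha, read 8.05, 7.51, 10.30 and 8.48, so that control 3 was 3.53-fold above the next animal. Dbp, an output factor, read 9.48, 9.57, 11.12 and 9.89, Nr1d2 8.89, 8.71, 10.15 and 9.33, and Per3 9.05, 9.18, 10.09 and 9.57. In all 4 of these genes control 3 was highest and control 4 next. The opposite arm was lowest in control 3: Bmal1 read 7.32 in control 3 and 8.50 or more in the others, and in controls 1 to 4 Cry1 read 8.45, 8.15, 7.20 and 8.21, Npas2 9.72, 8.98, 8.66 and 9.17, and Nfil3 8.23, 8.21, 7.73 and 8.17.

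Other clock genes varied less between the animals. Clock read 10.22, 10.04, 10.13 and 10.39, Per1 9.38, 8.93, 9.01 and 9.22, Per2 8.57, 8.83, 8.54 and 8.84, and Cry2 9.34, 9.40, 9.34 and 9.41. Tef, a relative of Dbp, was highest in control 3 by a small margin, with 9.17, 9.04, 9.47 and 9.28. With genes on both sides, the list of 15 genes had a median deviation of -0.03 in control 3, and 5 of its genes had an SD over 0.5. The rats were kept on a cycle of 12 hours of light and 12 of dark, and no label records the hour at which each animal was killed, so its part was not tested.

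Most cytotoxic lymphocyte genes were highest in control 2. Of the list's 16 genes, 12 were highest there, and the other 4, Gzmm, Klrk1, Ctsw and Klrc1, were highest in control 4. Control 2 was highest for 2571 of all 14497 genes and for 497 of the 6996 above the olfactory level in every animal. The list deviated by -0.09, 0.42, -0.27 and -0.03, the highest of any list in control 2. Prf1, the pore-forming perforin, read 9.37, 10.10, 9.34 and 9.27, and the granzymes, proteases delivered through its pores, followed, with Gzma at 9.48, 10.29, 9.37 and 9.38, Gzmb at 9.33, 9.97, 9.30 and 9.18 and Gzmk at 9.65, 10.28, 9.29 and 9.72. Klrb1a, a receptor of natural killer cells, read 8.73, 9.58, 8.85 and 8.91, and Nkg7, a granule protein, 10.94, 11.60, 10.93 and 11.32. Of the 19 T cell genes, 5 were highest and 10 lowest in control 2, the lowest including Cd3e (8.82, 8.53, 8.80 and 8.92) and Cd3g (9.03, 8.65, 8.89 and 9.14). Control 2 was also lowest for 4163 of all 14497 genes and for 2647 of the 6996. The T cell list deviated there by -0.08, against -0.05 over the 6996 genes above the olfactory level in every animal. Without control 2 the median SD of the cytotoxic list was 0.14, against 0.33 with it.

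**Figure D4:**
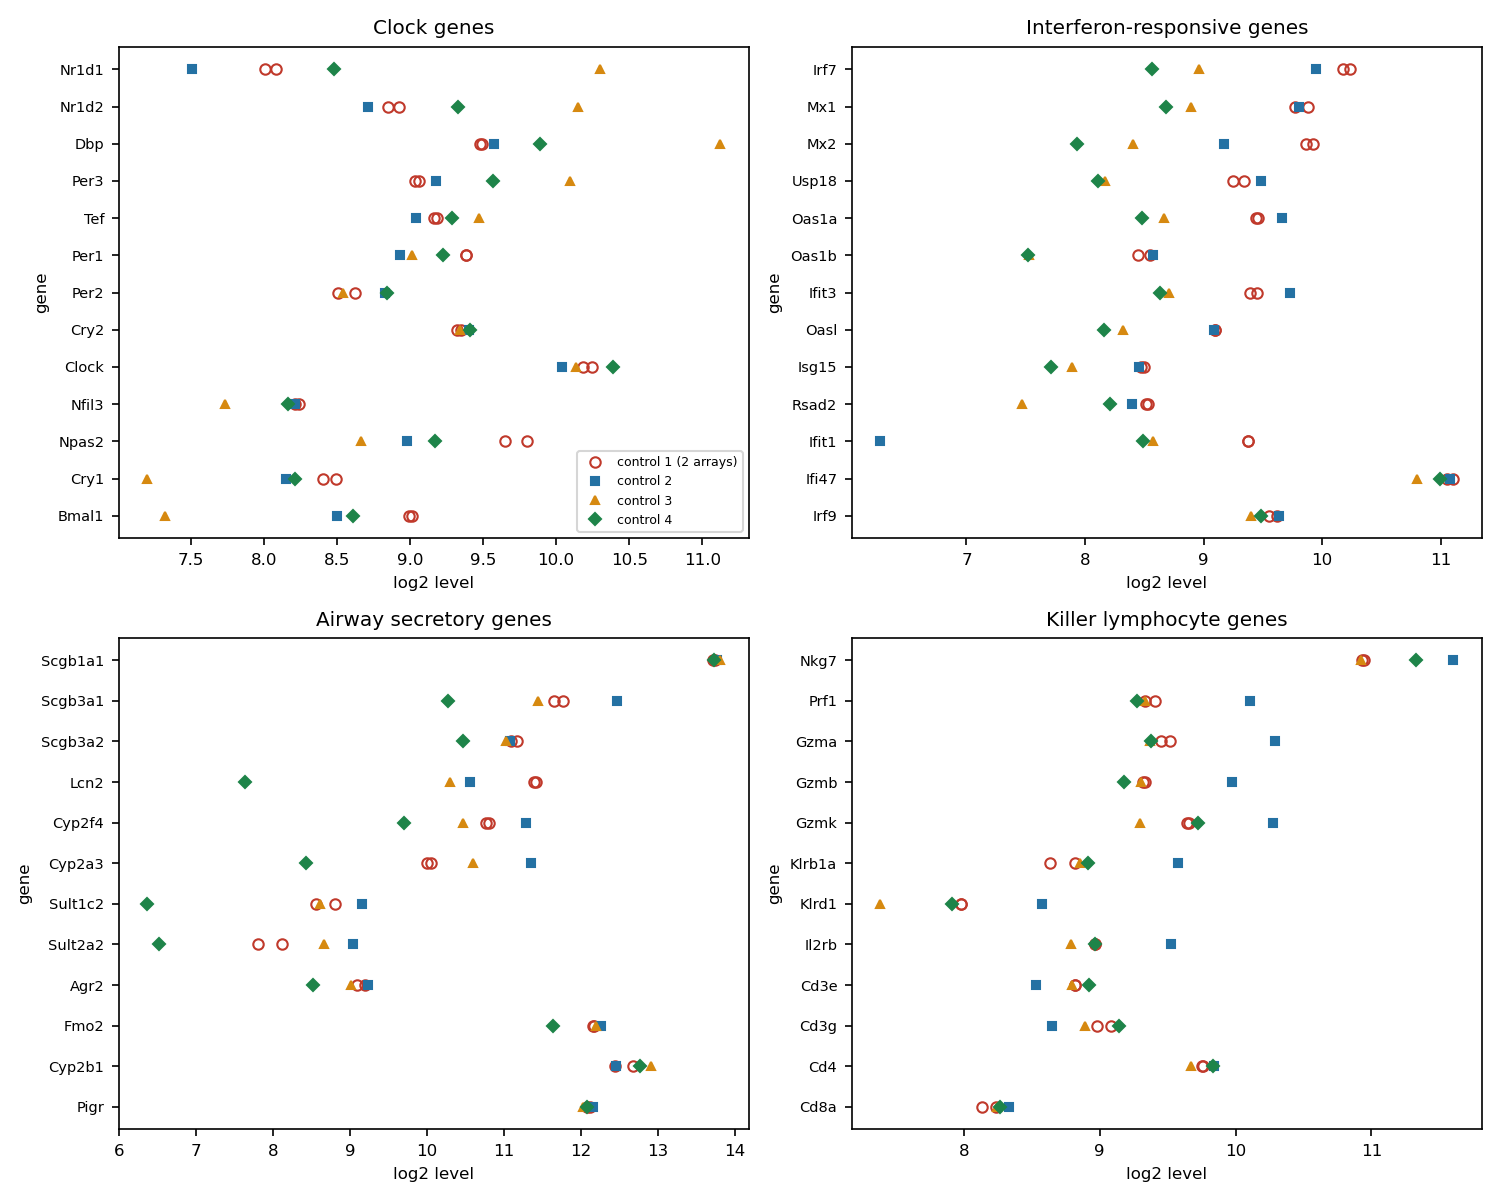
Log2 levels of clock, interferon-responsive, airway secretory and killer lymphocyte genes in the 4 control animals, with the 2 arrays of control 1 as open circles. Control 3 is highest for Nr1d1 (10.30) and lowest for Bmal1 (7.32), controls 1 and 2 lie right of controls 3 and 4 for Irf7, control 4 is lowest for Lcn2 (7.63), and control 2 is highest for Prf1 (10.10).

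Mast cell, granulocyte and red cell genes differed between single animals. The mast cell protease Mcpt1 read 8.55, 8.70, 7.27 and 9.84, and Cpa3, carboxypeptidase A3 of the same granules, 8.86, 8.63, 8.45 and 9.57, both highest in control 4 and lowest in control 3, while the receptor Kit was even at 9.17, 9.32, 9.11 and 9.36. The eosinophil granule gene Prg2 read 8.57 in control 1 and 6.93, 6.81 and 7.11 in the others. Ngp, a neutrophil granule gene, was also highest in control 1, with 8.44, 6.83, 6.61 and 7.37, whereas S100a9 read 10.92, 10.77, 10.88 and 10.93. The red cell list was higher by 0.29 in control 4 and the other animals lay between -0.15 and 0.02. In it, Alas2, which starts haem synthesis in red cell precursors, read 10.33, 10.19, 9.88 and 10.99, and Hbb-b1, a beta globin, 12.45, 12.48, 12.47 and 12.95. Ahsp, the alpha haemoglobin chaperone, read 9.30, 7.70, 8.19 and 9.26. No label records how much blood each sample held, and its part was not tested.

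Several immediate early and stress genes, which respond within minutes to handling and tissue removal, were lowest in control 3. Fos read 9.37, 9.11, 7.90 and 9.25, and Tsc22d3, a glucocorticoid-induced gene, 10.55, 10.33, 9.57 and 10.37. Atf3, a stress factor, read 8.30 in control 3 and up to 9.56 in the others. Other members varied less or in another order: Egr1 read 9.87, 9.21, 9.32 and 9.90, Dusp1 12.03, 12.01, 11.85 and 12.15, and Jund 9.15, 9.11, 9.09 and 9.11. Among heat shock genes Hspb1 read 10.81, 11.28, 10.36 and 10.52 and Dnajb1 9.14, 9.51, 8.70 and 9.30. The lists of 25 immediate early and 13 heat shock genes deviated by -0.11 and -0.16 in control 3, where the 6996 genes above the olfactory level in every animal deviated by -0.07. Of the 25 immediate early genes 14 were lowest in control 3, as were 4526 of all 14497 genes and 3251 of the 6996. Not all of the 25 belong to the 6996, as 14 of them lay above the olfactory level in every animal.

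The genes of fasting and lipid supply named here were all lowest in control 4 but did not share 1 full order of animals. In the whole list of 22 adipokine and lipid-responsive genes, 9 were lowest in control 4, and of all 14497 genes 3492 were. Of the 22, 12 lay above the olfactory level in every animal. Among the 7501 genes that did not, control 4 was lowest for 2978. Control 1 was highest for 12 of the 22 and for 4063 of all genes. The genes named here therefore do not stand for the whole list. Pdk4, the kinase that spares glucose by shutting pyruvate dehydrogenase, read 9.95, 9.53, 8.63 and 8.14, which is 3.51-fold between controls 1 and 4. Acot1, an acyl-CoA thioesterase, read 7.15, 7.17, 7.14 and 5.97, below the olfactory level in every animal. Fabp4, the fat-cell lipid carrier, was also lowest in control 4, at 5.82 against 6.54 to 7.08. Angptl4, another gene of the fasted state, read 7.78, 7.78, 7.53 and 7.38, and Cd36, the fatty acid transporter, 11.88, 11.79, 11.53 and 11.45. Retnla, a resistin-like secreted protein, was highest in control 1, with 11.11, 10.29, 10.63 and 10.24.

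**Figure D5:**
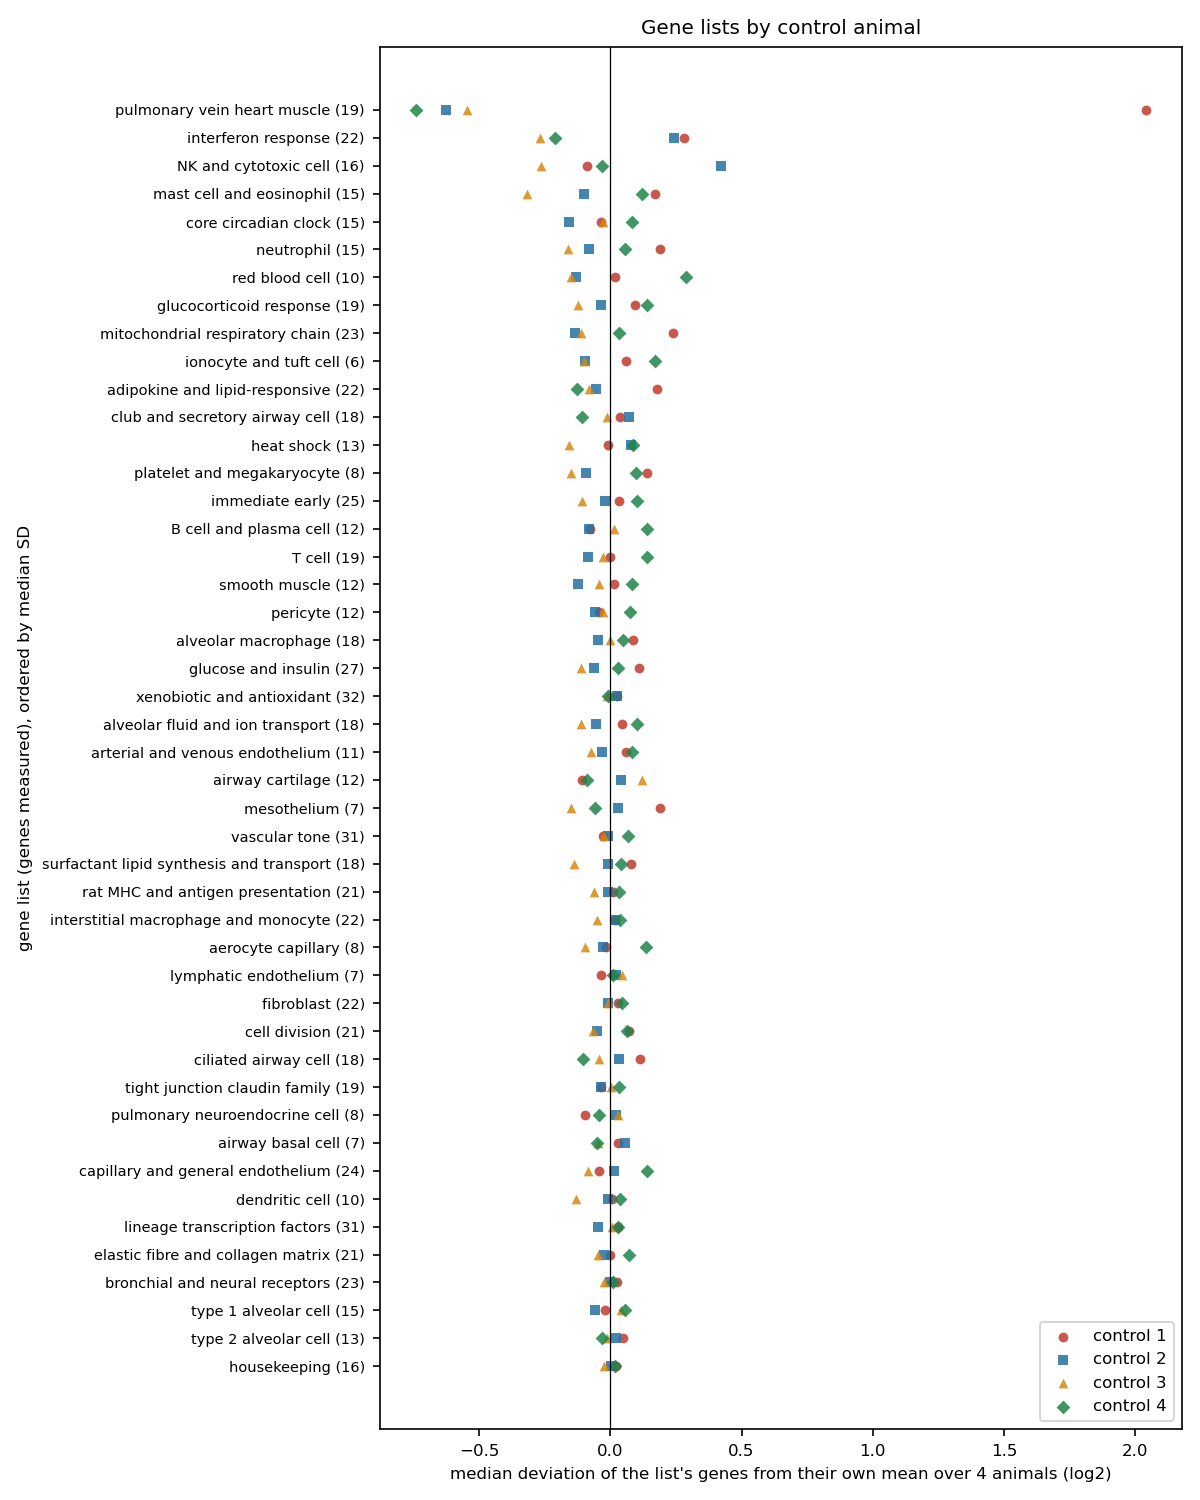
Median deviation of each list's genes from their own 4-animal mean (log2), 1 mark per control animal, with the lists ordered by median SD and outside tissues left out. Heart muscle in control 1 lies at 2.04, interferon genes split controls 1 and 2 from controls 3 and 4, cytotoxic genes in control 2 lie at 0.42, and alveolar and housekeeping lists lie close to 0 in every animal.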

How the data were processed

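Lung RNA of the control rats was labelled and hybridised to Affymetrix rat whole-transcript arrays. The authors deposited log2 values per transcript cluster; the submitters' processing notes name R 2.11.0, RMA and limma, without their roles. For the genome build: not given in the sources used here.

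Here the 2 arrays of control 1 were averaged, and no further normalization was applied. Of 28826 probes, 15209 had 1 symbol, 306 several and 13311 none. Of the first, 15179 were updated through RefSeq (assembly GRCr8) and 30 kept the array's symbol. The probe with the highest mean stood for a gene. Each list's deviation is the median over its genes of an animal's value minus the gene's mean. The members and the 53 gene lists were chosen with earlier results of these data known.

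Genes were named if among the 30 highest means, the 4 markers, a list's highest or most variable members, the 30 largest SDs or the 15 smallest; other list members were named where a description needed them. Bmp3, C6, Chodl, Ctdsp1, Dnajc12, Rgs1 and S100g were named after their values were seen. Placeholder symbols and receptors of the nose were left out. Alternatives were another array of control 1, normalization, probe rule, filter, threshold, and each animal left out. Scripts used Python 3.11.15, numpy 2.4.6, pandas 2.3.3 and matplotlib 3.10.9 and were tested on simulated data. Array number limits the precision.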

Additional observations from a re-analysis of the deposited data

Results flagged for a closer look

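For 48 of the 247 genes named in the text, 1 control animal stood apart from the other 3, in that its gap to the nearest of them, as a share of the whole range, was above Dixon's 95% critical value for 4 samples. Chance alone sets apart about 1 in 20 such groups, and over all 14497 genes the share was 7.65%. Many of the named genes were chosen for a wide spread, so their share is not compared with that. The levels given here are those of the animal that stood apart.

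Control 1 was the lone high animal for 20 of them. They include the muscle structure and calcium genes Mb (12.19), Actc1 (12.06), Myl3 (11.15), Tnnt2 (11.26), Myh6 (11.13), Pln (11.02), Myh7 (10.68), Tnnc1 (10.17), Tnni3 (9.97), Myl2 (9.48), Ttn (9.47), Actn2 (9.26), Casq2 (9.17) and Nppb (7.86). They also include the muscle energy genes Ckm (10.55), Cox6a2 (9.57), Cpt1b (8.62) and Fabp3 (10.18). Outside muscle, control 1 was high for Gpm6a (11.24) and RT1-Da (11.99). It was low for Chga (6.70), a hormone-granule gene below the olfactory level in every animal.

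Control 2 was high for the cytotoxic genes Gzma (10.29) and Prf1 (10.10) and for Calca (6.96), and low for Cyp1a1 (5.39) and Dnajc12 (7.88). Control 3 was low for the clock gene Nfil3 (7.73), the ribosomal protein gene Rps25 (9.73) and the signalling genes Bmp3 (7.80), Rgs1 (7.50) and Ctdsp1 (8.35). It was also low, by small margins, for Ace (11.75), Ece1 (10.01) and Gapdh (13.37), and high for Atp2a1 (7.15), Nos3 (7.82) and Sln (7.63). Control 4 was low for the airway genes Fmo2 (11.64), Scgb3a2 (10.46) and Tppp3 (12.14) and for Acot1 (5.97) and Tp63 (6.21). It was high for Apln (9.17), Chodl (8.66), Hbb-b1 (12.95), Igfbp7 (13.19), Lyz2 (13.69) and Sparc (12.90). Several of these gaps are small on the log2 scale: for Lyz2 the gap was 0.0246 and for Gapdh 0.081.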

How the results depend on the processing

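Of 15 summary values recomputed under up to 14 settings, giving 186 values, 6 moved in 1 setting each. Scaling every animal to the same median and SD raised the median SD of the type 2 list from 0.0687 to 0.1448 and that of the type 1 list from 0.0785 to 0.1374, above the 0.1162 of all genes in that setting, and the cause was not tested. With each animal left out in turn, the median SD of the heart muscle list ran from 0.1217 (without control 1) to 1.5928, against 1.361 with all animals. That of the respiratory chain list ran from 0.1069 (without control 1) to 0.2203, against 0.2099. That of the cytotoxic list ran from 0.136 (without control 2) to 0.3948, against 0.3311, and that of the club and secretory list from 0.1071 (without control 4) to 0.1966, against 0.1825. The count of genes above the olfactory level in every animal, 6996, ran from 6998 to 7325 with 1 animal fewer, and the 196 wide genes from 168 to 208. They were 4958 and 133 with the olfactory level at the 99th percentile, and 8062 and 259 with the median of all probes in its place. These changes were not counted as moved, because only larger proportional changes of a summary value or count were. A gene level counted as moved where it shifted by more than the gene's SD, and a list deviation by more than the list's median SD. Among single values, 11 of 2939 recomputed gene levels, 15 of 2332 list deviations and 29 of 742 list counts moved under some setting. With other normalizations the deviations of the heart, interferon, cytotoxic and red cell lists kept their signs in every animal, whereas those near 0 did not all: the respiratory chain list in control 4 and the clock list in control 3 changed sign with quantile normalization and with scaling to 1 median and SD. No paired analysis was possible because only the control group was described. The number of animals, 4, limits every SD given.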

Other observations

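Single genes outside the described groups differed widely between control animals, and were chosen after their values were seen. Ly6al, a Ly6 family gene, read 10.74, 6.65, 5.74 and 6.07 in controls 1 to 4, and was high in control 1. Fam111a, a protease gene of viral host range, read 7.94, 10.28, 7.30 and 10.23, so that controls 2 and 4 were high and controls 1 and 3 low. C6, a late complement component, was highest in control 3, with 8.08, 7.74, 9.61 and 7.90. S100g, a calcium-binding protein, read 10.67, 11.93, 12.32 and 10.86, higher in controls 2 and 3.

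At the other end, 7 named genes had the same value on all 5 control arrays to 6 decimals, among them Sh3gl1, an endophilin gene, at 9.01. It was the 1 gene of the 7 above the olfactory level in every animal.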
